A study of Homo sapiens with 4 samples.

Results

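AP-1 (activator protein 1) is a transcription factor made of paired proteins of the JUN, FOS and ATF families. The RNA levels of 10 genes of AP-1 and of the related small MAF proteins, JUN, JUNB, JUND, FOS, FOSL1, FOSL2, ATF3, MAFF, MAFG and MAFK, were examined in MDA-MB-231 Fluc cells. In the figures and their captions all 10, with the small MAF genes, are called AP-1 genes. The genes were taken by symbol from the authors' deposited table, and all 10 were found among its 13957 genes. MDA-MB-231 is a breast cancer line that lacks hormone receptors, and its Fluc derivative has a luciferase gene for imaging after transplantation. In this study, 2 samples were treated with 50 μM cordycepin (3′ deoxyadenosine) and 2 samples with the vehicle DMSO, each for 2 h, and the cells of both groups carry the luciferase insertion. RNA depleted of ribosomal RNA was sequenced from each sample. For each gene the table gives 1 log2 CPM and 1 gene length. No sample is named for the log2 CPM, so it was taken as the mean over the 4 libraries. The columns in which the authors compare cordycepin with DMSO were not used here, so the values below describe the RNA of treated and untreated cells together and say nothing of the effect of cordycepin. A level per library was not available from the columns used, so no value has an SD, no difference between genes was tested, and the depth of the libraries is unknown.

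AP-1 proteins have a basic region that contacts DNA and a leucine zipper that joins a pair of proteins. JUN proteins can pair with each other, whereas FOS proteins need a JUN partner to bind DNA. ATF3 pairs with JUN proteins and with other proteins of the ATF and CREB type. The small MAF proteins MAFF, MAFG and MAFK lack a transactivation domain and bind DNA as pairs among themselves or with NFE2-related and BACH proteins. Many AP-1 genes are immediate early genes, which growth factors induce through MAP kinases, and FOSL1 is known for high expression in invasive breast cancer lines.

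Since AP-1 and CREB proteins are known to act on the promoters of some of these genes, the sequence around the transcription start was examined for 5 elements. RefSeq promoter windows from 250 bases before to 50 bases after a start (GRCh38.p14) were matched for 8 of the 10 genes, with 10 windows in all because ATF3 and MAFF had 2 each. FOSL1 and MAFK were not matched. Both strands were searched for the TPA response element TGACTCA, the cAMP response element TGACGTCA, the variant TGACATCA known from the JUN promoter, the TATA box TATAAA and the CArG box, to which serum response factor binds. None of the matches overlapped another. The stretches that hold a match near the start are shown with the element in capitals, on the strand of the gene.
JUN: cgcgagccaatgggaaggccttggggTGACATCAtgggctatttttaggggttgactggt
ATF3: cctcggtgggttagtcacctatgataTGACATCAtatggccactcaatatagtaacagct
JUND: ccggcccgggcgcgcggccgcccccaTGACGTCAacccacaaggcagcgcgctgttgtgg
MAFF: gccgggtcggTGACGTCAccgcatgact
FOSL2: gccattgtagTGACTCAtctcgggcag
FOS: aaacgcttgtTATAAAagcagtggct
JUNB: actagcgcggTATAAAggcgtgtggc

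The JUN stretch lies on the minus strand at chr1:58784081-58784140 and the ATF3 stretch on the plus strand at chr1:212565258-212565317. In JUN the element begins 67 bases before the start, and in ATF3 it begins 123 bases before the start of 1 of its 2 windows. In GENCODE release 44 the ATF3 gene begins at position 212565334, so the element lies upstream of the annotated gene. TGACATCA was present in 2 of the 10 windows and in 2.61% of all 35116 windows. Since this element is known from the JUN promoter, the match in JUN was fixed by the choice of the element. The JUND stretch is on the minus strand at chr19:18281789-18281848, and its TGACGTCA begins 200 bases before the start. That of MAFF is on the plus strand at chr22:38201930-38201957, with the element 54 bases before the start of 1 of its 2 RefSeq windows. The MAFF stretch lies within an exon of another MAFF transcript of GENCODE release 44. TGACGTCA was likewise present in 2 of the 10 windows, compared with 1.85% of all windows. FOSL2 had the TPA response element just after the start used by RefSeq, at chr2:28392852-28392878 on the plus strand. In GENCODE release 44 the FOSL2 gene begins farther upstream, at position 28392448, so the element lies inside the annotated gene. The TPA response element was present in 4.95% of all windows. TATAAA was found close before the start of FOS (chr14:75278785-75278810, plus strand) and JUNB (chr19:12791445-12791470, plus strand), beginning 33 and 31 bases before it. The other ATF3 window, farther downstream, also held TATAAA, at chr1:212614768-212614819 and 230 bases before its own start. TATAAA was present in 11.5% of all windows. The CArG box was in none of the 10 windows and in 1.29% of all windows. Only exact forms of the 5 elements were searched, so sites with other letters inside the windows would be missed. Sequence more than 250 bases before a start was not searched, and FOSL1 and MAFK had no window. The absence of a CArG box therefore holds only for the form and the windows searched. The matches are descriptions of letters, and binding was not measured.

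The levels were then compared between genes as log2 CPM per kb, which is the authors' mean log2 CPM (counts scaled to the size of the library) less the log2 of the gene length in kb. FOSL1 had the highest level of the 10 genes and FOS the lowest. The levels ran from -0.70 to 7.66, compared with -5.57 to 12.80 for all genes. All genes here are the 13957 genes of the authors' table, whose lowest mean log2 CPM was 0.56. Genes absent from that table do not enter the medians, quartiles or percentiles. The median of the 10 genes was 3.26 and that of all genes was 2.43. Of the 10 genes, 6 were above the median of all genes, 4 were above the upper quartile of 3.88 and 2 were below the lower quartile of 0.94.

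**Figure D1:**
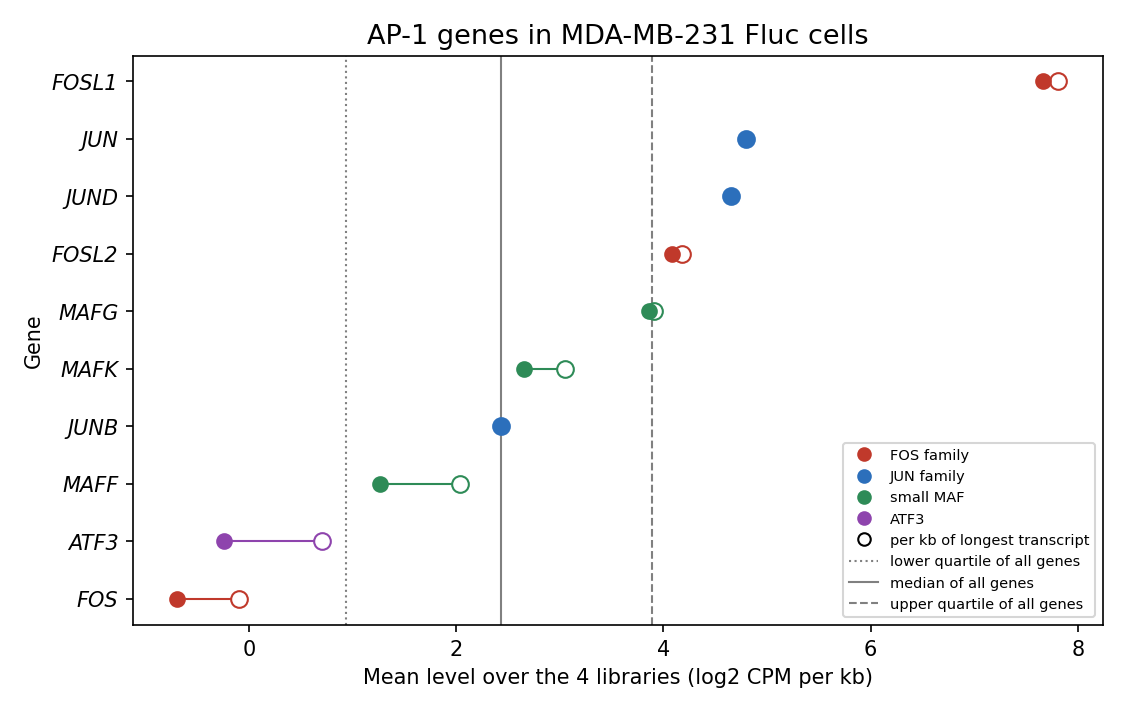
Mean level of each AP-1 gene over the 4 libraries on the x axis (log2 CPM per kb), with genes on the y axis in order of level and coloured by family. Filled points use the gene length of the deposited table, open points the longest transcript, and vertical lines are the quartiles of all 13957 genes; FOSL1 at 7.66 stands to the right of the other genes, and FOS and ATF3 lie left of the lower quartile.

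Among the FOS genes, which encode the partners of JUN proteins, FOSL1 (FRA1) was predominant. FOSL1 (ENSG00000175592, chr11:65892049-65900573, minus strand, 1887 bases) had a mean log2 CPM of 8.58 in the authors' deposited table, which is 383 CPM. Per length its level was 7.66 log2 CPM per kb, at percentile 98.5 of all genes and rank 208. FOSL2 (FRA2; ENSG00000075426, chr2:28392448-28417317, plus strand, 7162 bases) had a mean log2 CPM of 6.92 and a level of 4.08 log2 CPM per kb, at percentile 78.0. The level of FOSL1 was 12.0 times that of FOSL2 per length, but 3.15 times without division by length, since FOSL2 is the longer gene. FOS itself (ENSG00000170345, chr14:75278826-75282230, plus strand, 3186 bases), the classical immediate early gene, had a mean log2 CPM of 0.98, which is 1.97 CPM. Its level of -0.70 log2 CPM per kb was at percentile 6.86. The FOSL1 level was 328 times that of FOS per length and 194 times without division by length. FOS lies near the lowest mean log2 CPM of the table, 0.56, and the precision of so low a value cannot be given. FOSB, the remaining gene of the FOS family, was not among the genes of the table. Of the summed level of the 3 FOS genes present, FOSL1 held 92.0%, FOSL2 7.69% and FOS 0.28%.

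The JUN genes, whose products are the obligatory partners of FOS proteins, had 2 members at similar levels and 1 at a lower level. JUN (ENSG00000177606, chr1:58780791-58784047, minus strand, 3257 bases) had a mean log2 CPM of 6.50 and a level of 4.80 log2 CPM per kb, at percentile 86.0. JUND (ENSG00000130522, chr19:18279694-18281622, minus strand, 1929 bases), which is known for a more constant expression than JUN, had a mean log2 CPM of 5.60 and a level of 4.65, at percentile 84.6. The ratio of JUN to JUND was 1.11 per length and 1.87 without division by length, and no spread is at hand to say whether they differ. JUNB (ENSG00000171223, chr19:12791486-12793315, plus strand, 1830 bases), whose product is a weaker activator than JUN, had a mean log2 CPM of 3.30 and a level of 2.43 log2 CPM per kb. JUNB was at percentile 49.9 per length and at percentile 30.3 without division by length. The level of JUN was 5.18 times that of JUNB per length and 9.21 times without division by length. JUN held 47.8% of the summed level of the JUN genes, JUND 43.0% and JUNB 9.22%. In GENCODE release 44 the canonical transcripts of these 3 genes have 1 exon each, whereas those of the other 7 genes have 3 or 4.

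ATF3, which encodes a stress-induced factor that pairs with JUN proteins, was the second lowest. ATF3 (ENSG00000162772, chr1:212565334-212620777, plus strand, 4040 bases) had a mean log2 CPM of 1.77, which is 3.42 CPM. Its level was -0.24 log2 CPM per kb, at percentile 10.9 of all genes. Among the 10 genes, only FOS and ATF3 fell in the lowest 25% of mean log2 CPM.

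The small MAF genes spanned a smaller range than the FOS genes. MAFG (ENSG00000197063, chr17:81918270-81927735, minus strand, 5241 bases) had a mean log2 CPM of 6.25 and a level of 3.86 log2 CPM per kb, at percentile 74.7. MAFK (ENSG00000198517, chr7:1530702-1543043, plus strand, 4470 bases) had a mean log2 CPM of 4.81 and a level of 2.65, at percentile 54.1. MAFF (ENSG00000185022, chr22:38200767-38216507, plus strand, 5611 bases), the small MAF gene known as inducible, had a mean log2 CPM of 3.75 and a level of 1.26, at percentile 29.6. Per length, MAFG was 2.32 times MAFK and 6.07 times MAFF. MAFG held 62.7% of the summed level of the small MAF genes, MAFK 27.0% and MAFF 10.3%.

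**Figure D2:**
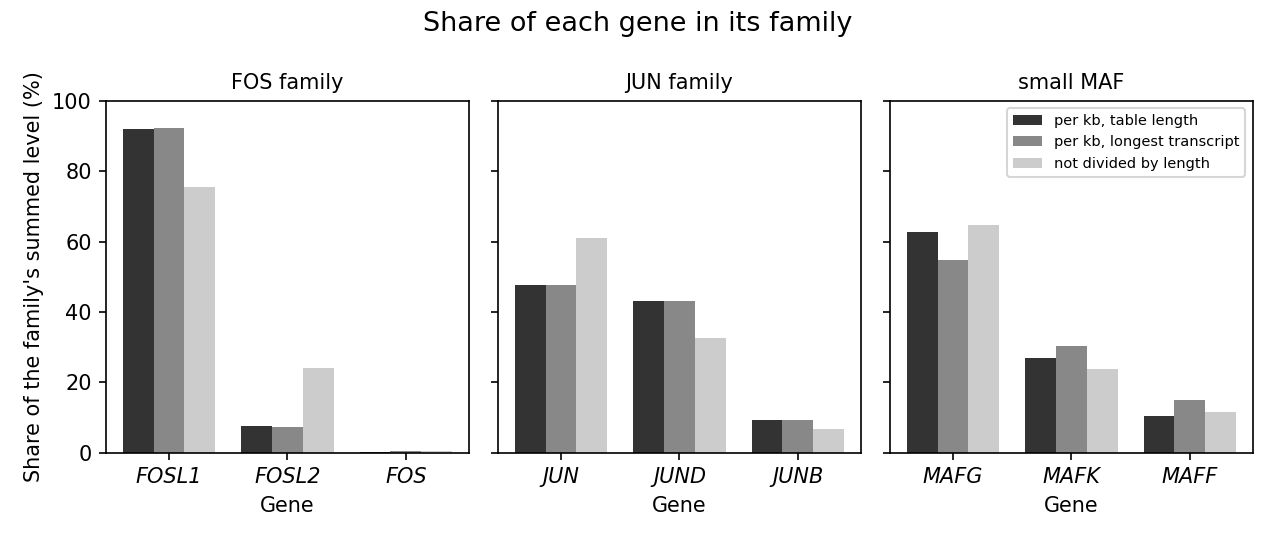
Share of each gene in the summed linear level of its family (y axis, %), by gene (x axis), with the levels divided by the gene length of the deposited table (dark), by the longest transcript (grey) or not divided by length (light). FOSL1 holds 92.0% of the FOS genes per length and 75.6% without division by length, whereas JUN and JUND are close per length.

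Over all 10 genes, the 3 FOS genes together held 72.8% of the summed level per length, the 3 JUN genes 19.3%, the 3 small MAF genes 7.67% and ATF3 0.28%. FOSL1 alone held 67.0% per length and 49.3% without division by length. Without division by length the FOS genes held 65.2%, the JUN genes 19.2% and the small MAF genes 15.2%. In the order of the levels per length, the neighbours JUN and JUND, FOSL2 and MAFG, and MAFK and JUNB differed by 0.15, 0.22 and 0.22 on the log2 scale. The largest step in this order was the 2.86 between FOSL1 and JUN. The order depends on the division by length. By mean log2 CPM, FOSL1 was followed by FOSL2, at a distance of 1.66, and FOSL2 was above JUN, MAFG above JUND and MAFF above JUNB.

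Whether reads could be shared with other genes was examined with the canonical transcripts. No stretch of 75 bases, the length of a read, occurred in the transcripts of 2 of the 10 genes. For JUN, JUND, FOS, FOSL1, FOSL2 and ATF3, none occurred in transcripts of any other gene of GENCODE release 44. Of the stretches of MAFK, 22.2% also occurred in transcripts of TMEM184A on the opposite strand. For MAFF and JUNB, 11.0% and 10.5% were shared with PLA2G6 and HOOK2, also on the opposite strand. MAFG shared 2.43% with SIRT7 on the same strand and a noncoding gene on the opposite strand. The libraries were stranded, but how the counting treated strand and overlapping genes was not given in the sources used here, so the levels of these 4 genes are less certain in this respect.

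The levels were compared with those of related genes from lists written from general knowledge. Of 20 other genes of the bZIP type, which encode possible partners or relatives of AP-1 proteins, 13 were in the table, with a median of 2.82 log2 CPM per kb. FOSB, BATF, BATF2, MAF, MAFA, NFE2 and BACH2 were not among its genes. The highest were ATF4, which acts in the integrated stress response, at 5.88, NFE2L1, which controls proteasome genes, at 5.61 and NFE2L3 at 5.34. None of the 13 was above FOSL1. The NFE2-related and BACH genes in the table, whose products pair with small MAF proteins, included NFE2L2 (NRF2) at 3.90 and BACH1 at 1.63 log2 CPM per kb.

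Of 11 kinases that act upstream of AP-1, 10 were in the table, MAPK10 being the exception, and 9 of them were above the median of all genes. The highest were the ERK pathway kinases MAP2K2 (MEK2) at 5.09 and MAP2K1 (MEK1) at 4.82 and the p38 kinase MAPK14 at 4.64 log2 CPM per kb, whereas MAPK8 (JNK1) was the lowest at 2.37. All 7 transcription factors listed for binding to the promoters of AP-1 genes were in the table, and SRF at 5.45, ELK1 at 5.13 and ELK3 at 4.93 log2 CPM per kb were the highest. Of 14 genes commonly listed as AP-1 targets, 11 were in the table with a median of 6.16. MMP3, MMP9 and MMP13, which encode matrix metalloproteinases, were not among its genes. HMGA1, a chromatin protein gene, was at 9.27, TIMP1, a metalloproteinase inhibitor gene, at 7.60 and CCND1, the cyclin D1 gene, at 7.51 log2 CPM per kb. Lowest were IL6 at 0.39 and CXCL8 at 0.32. The part of AP-1 in the levels of these genes was not tested.

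**Figure D3:**
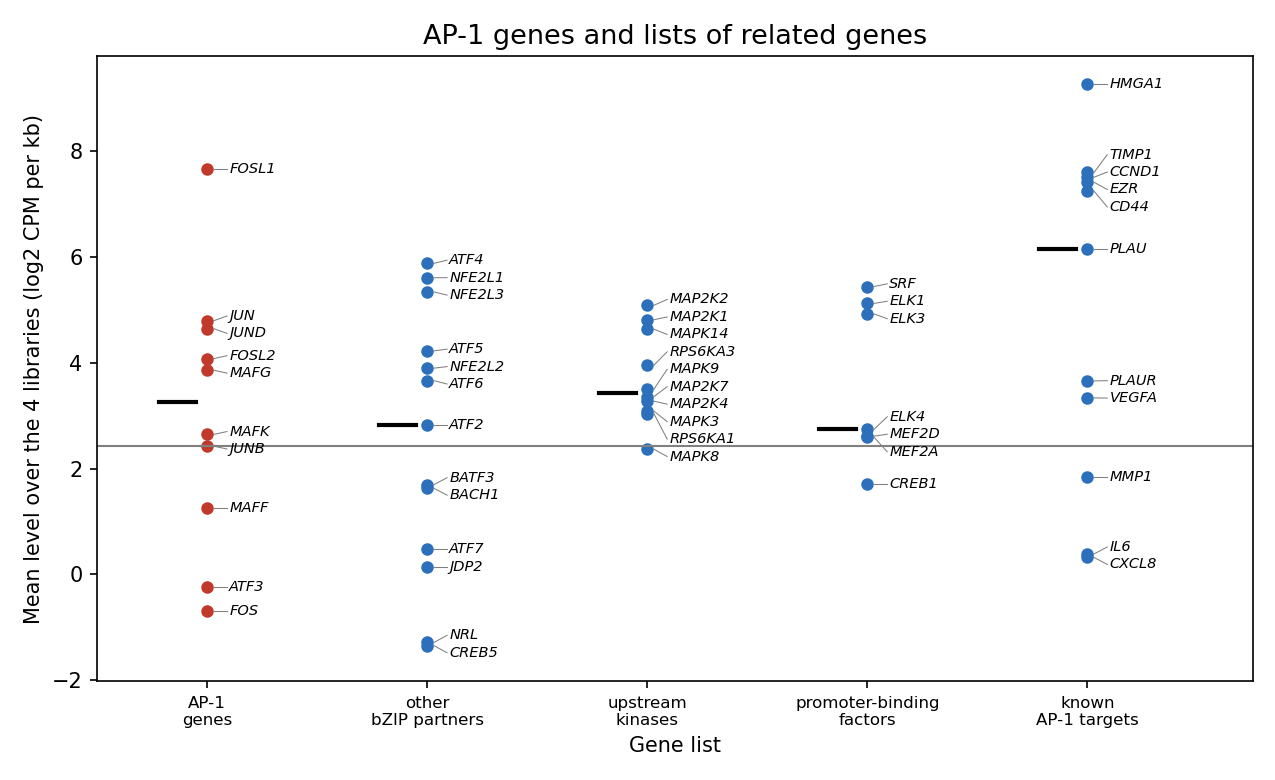
Mean level over the 4 libraries (y axis, log2 CPM per kb) of the 10 AP-1 genes (red) and of 4 lists of related genes (blue), 1 point per gene in the table. Short black bars are the medians of the lists (3.26 for the AP-1 genes, 6.16 for the targets) and the grey line is the median of all genes; FOSL1 lies above each of the other bZIP genes, kinases and promoter-binding factors.

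The label of the cells was compared with known markers. VIM, CD44, EGFR, KRT8 and KRT18, which MDA-MB-231 cells are known to express, were all above the upper quartile of all genes, and VIM was the highest at 8.08 log2 CPM per kb. ESR1 and PGR, the hormone receptor genes, were not among the genes of the table, and CDH1 was at 1.07. PTPRC, CD3E, PECAM1, VWF and ALB, markers of other cell types, were also not among them.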

How the data were processed

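RNA of 4 samples of MDA-MB-231 Fluc cells (2 cordycepin, 2 DMSO) was sequenced by the study as 75 bp paired-end reads. By the paper's methods the authors used GRCh38.p13 for mapping and rsubread for counting, while the submitters' processing notes name hg38, TopHat, HTSeq, DESeq and Cufflinks; the filter on low counts was not given in the sources used here. The authors' deposited table holds a log2 CPM, taken as the mean over the 4 libraries, and a gene length for each gene. The name of this log2 CPM does not say whether it is a mean of logarithms or the logarithm of a mean. Nor does it say whether a small count was added before the logarithm. Over the genes, 2 to the power of this log2 CPM sums to 1005541, so the logarithm is to base 2. The deposited table also holds the authors' own comparison (log2 fold change, F statistic, p-value and adjusted p-value), which was not used, and 0 further columns of values per sample. The planned test of cordycepin against DMSO was therefore not made.

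Levels were divided by the gene length of the table, which equals the union of exons in GENCODE release 44 for 73.5% of genes and for 8 of the 10 members. Of the gene IDs, 99.7% were found in GENCODE, with the same start and end for 81.9% of genes. Percentiles are the share of genes at or below a value. As alternatives, the longest transcript, no division by length, protein-coding genes only (11603) and genes above the lowest 25% of mean log2 CPM (10467) were used. Promoter windows are from RefSeq. Calculations were tested on simulated data and made in Python 3.11.15 with pandas 2.3.3, numpy 2.4.6 and, for plots, matplotlib 3.10.9. The genes named are the 10 members, the cell type markers, the 3 highest genes of each related list and those of a list not in the table; NFE2L2, BACH1, MAPK8, IL6 and CXCL8 were named after their values were seen, and the genes sharing sequence by the search itself. Some genes of the related lists are not reported here. The members and lists were chosen with earlier results of these data known.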

Additional observations from a re-analysis of the deposited data

How the results depend on the processing

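Of the 10 genes, 6 were above the median gene, and this count was 6 against protein-coding genes only and 6 without division by length. Dividing by the longest transcript raised the levels of MAFF, ATF3 and FOS by more than 1.5 times, to 2.03, 0.70 and -0.10 log2 CPM per kb, while 7 levels moved by less. Without division by length, the share of FOSL1 in the FOS genes was 75.6% and that of FOSL2 24.0%, and JUN held 60.9% and JUND 32.5% of the JUN genes. Among genes above the lowest 25% of mean log2 CPM, MAFK, JUNB and MAFF were at percentiles 41.1, 36.1 and 13.8, and FOS and ATF3 were left out by this filter. No paired analysis was possible because the columns used hold no value per library, and for the same reason no replicate could be left out. The mean covers both treatments, so a gene that differed between them would have a mean that holds for neither.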
